A study of Rattus norvegicus with 24 samples.

Results

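Nppa and Nppb encode the cardiac natriuretic peptides, atrial natriuretic peptide (ANP) and B-type natriuretic peptide (BNP). They are 2 of the 32883 genes in the deposited tables of a rat heart study. They were chosen by identifier, ENSRNOG00000008176 as Nppa and ENSRNOG00000008141 as Nppb. The tables carry no gene names, and the RefSeq table used for sequences holds no Ensembl numbers, so the pairing of name and number could not be checked here.

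RNA was sequenced from the left ventricle with septum and from the free wall of the right ventricle of rats of strain WI. There were 24 libraries in 4 groups of 6: CTL (read here as control) and DAAO, each in both ventricles. DAAO commonly stands for D-amino acid oxidase, which forms hydrogen peroxide when it is given a D-amino acid, and the study is titled as one of chemogenetic heart failure. The labels give neither how the enzyme was delivered, nor its promoter, nor the D-amino acid, dose, time, age or sex, nor what the controls received. Libraries with the same 4-digit number were read as the left and right ventricle of 1 animal, which no label states. Animals are named as in the tables, C_7000 for a control and D_7135 for a DAAO animal. No label says that the numbers are separate animals, so p-values measure the spread between these samples. Every DAAO number is higher than every CTL number, so group and numbering cannot be told apart.

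ANP and BNP are hormones that heart muscle cells make as longer precursors. Once released and cut, they act on a receptor guanylyl cyclase on kidney, vessel and other cells, raise cyclic GMP, and promote salt and water loss and widening of vessels. In the adult heart the atria are the main source of Nppa, and ventricular muscle makes little of it until it is stretched or overloaded. Nppb is also raised by wall stress, and its product is the plasma marker of heart failure used in clinics. Both genes belong to the fetal gene programme that returns in failing ventricles.

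In the RefSeq annotation of the rat assembly GRCr8 Nppb and Nppa are neighbours on the same strand, with no other annotated gene between them. Next to Nppb lies 2510039O18Rikl and next to Nppa lies Clcn6, a chloride transporter gene. The 250 bases before each RefSeq start are shown, on the plus strand of GRCr8. Nppa is at chr5:163711934-163712183 and Nppb at chr5:163699758-163700007. Capitals mark matches, on either strand, to 3 motifs picked with the sequences in view. The GATA motif was searched as TGATAA and, in a separate pass, as AGATAA. The M-CAT motif was searched as GGAATG. The TATA motif was searched as TATAAA.
Nppa: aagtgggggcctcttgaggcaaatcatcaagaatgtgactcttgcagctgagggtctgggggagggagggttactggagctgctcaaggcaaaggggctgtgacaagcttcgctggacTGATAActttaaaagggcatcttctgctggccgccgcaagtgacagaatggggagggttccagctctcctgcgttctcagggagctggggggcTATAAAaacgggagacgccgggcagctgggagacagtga
Nppb: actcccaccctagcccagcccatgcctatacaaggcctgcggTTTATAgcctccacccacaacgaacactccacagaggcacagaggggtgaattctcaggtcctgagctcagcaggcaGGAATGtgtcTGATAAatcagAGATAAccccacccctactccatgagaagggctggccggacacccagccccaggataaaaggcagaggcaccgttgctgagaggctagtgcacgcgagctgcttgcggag

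The Nppa window holds 1 GATA match, whose first base lies 132 bases before the start, and 1 TATA match at 39 bases before it. The Nppb window holds 2 GATA matches, at 121 and 110 bases before the start, beside an M-CAT match at 131. Its TATA match lies at 208 bases and reads TTTATA on the printed strand, as the reverse complement. Only the exact letters were searched, so near matches, such as gataaaa closer to the Nppb start, are not marked. None of these matches overlaps another. GATA4, a transcription factor of heart muscle, binds GATA motifs, and TEAD factors bind M-CAT motifs. Among the 33469 RefSeq promoter windows of this length, 16.9% hold a GATA match, 2.60% hold at least 2, 12.1% hold M-CAT and 12.9% hold TATA. The letters AAGTG, the core of motifs bound by NKX2-5, occur 2 times in the Nppa window and 0 times in that of Nppb, against 40.6% of windows with a match. These matches describe letters in a window, and no binding was measured.

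The deposited values are normalized counts: reads per gene divided by 1 size factor per library, set separately for each ventricle. Whole reads were recovered from them and ranged from 13280705 to 23263897 per library. The right ventricular library of C_7123 and, less so, that of C_7000 stood apart from the other controls in the pair. The main tests that rest on C_7123 are therefore given with and without it. For Nppb, the right ventricular change, the chamber difference in CTL and the difference of effects are also given without C_7000. The labelled tissues could not be checked against atrial, ventricular or other cell markers, because the files give no names for those genes. For the same reason the receptors Npr1, Npr2 and Npr3, the convertases Corin and Furin, and the other listed genes of the pathway are not reported here.

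In the left ventricle both natriuretic peptide genes were higher in every DAAO animal than in every control. Nppa rose 12.6-fold and Nppb 3.04-fold. Nppa in CTL was 8709 in C_7000, 13340 in C_7005, 2489 in C_7118, 7757 in C_7120, 9781 in C_7121 and 4370 in C_7123, in normalized counts. The DAAO libraries held 113614 in D_7135, 78553 in D_7137, 72655 in D_7138, 65222 in D_7142, 62067 in D_7143 and 147787 in D_7146. The lowest DAAO library stood 4.65-fold above the highest control, and D_7146 and D_7135 were the highest.

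Nppa averaged 7741 ± 3883 over the controls and 89983 ± 33832 over the DAAO animals (SD, n = 6 each). The log2 change was 3.66 (SE 0.37, 95% interval 2.87 to 4.45, limma adjusted p = 1.83e-05). Of every 1000000 recovered reads, 416 ± 234 came from Nppa in CTL and 5438 ± 2144 in DAAO. The rise was the 26th largest of the 14041 genes tested in the left ventricle.

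Nppb in left ventricular CTL was 5079 in C_7000, 5086 in C_7005, 2020 in C_7118, 4845 in C_7120, 5228 in C_7121 and 3620 in C_7123. DAAO animals had 13708 in D_7135, 11219 in D_7137, 9727 in D_7138, 14579 in D_7142, 9492 in D_7143 and 18213 in D_7146. The groups did not overlap, and the lowest DAAO library stood 1.82-fold above the highest control. C_7118 and C_7123 were the lowest controls for both genes, and D_7146 the highest DAAO animal for both.

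Group means of Nppb were 4313 ± 1268 and 12823 ± 3352 (SD, n = 6 each), a log2 change of 1.60 (SE 0.24, 95% interval 1.09 to 2.11, limma adjusted p = 0.000237). That rise was the 310th largest of the tested genes. Both members were called in this ventricle, where 37.3% of genes were called and 17.3% were called higher. Every DAAO library was above every control for both members, as for 7.58% of all tested genes (15.9% in either direction).

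**Figure D1:**
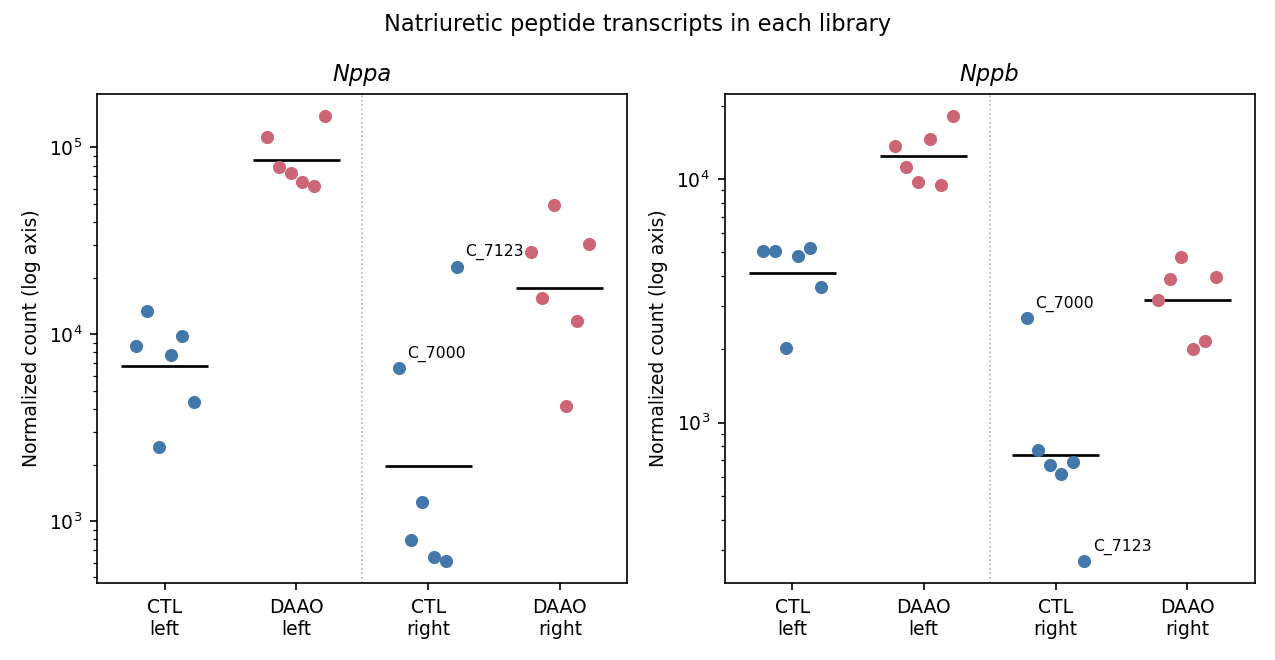
Normalized counts of Nppa and Nppb in each library on log axes, with 1 point per library, 6 libraries per group, and bars at the geometric mean. The tables of the ventricles were normalized separately. In the left ventricle no DAAO point reaches down to a control point, while in the right ventricle C_7123 lies at 23065 for Nppa, inside the DAAO range of 4113 to 48953, and lowest of all for Nppb at 271.

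In the right ventricle both genes were again higher in DAAO, but the groups overlapped, and the size of the Nppa change depended on C_7123. With all animals the change was 8.94-fold for Nppa and 4.31-fold for Nppb. Nppa in CTL was 6588 in C_7000, 796 in C_7005, 1271 in C_7118, 646 in C_7120, 613 in C_7121 and 23065 in C_7123. The DAAO values were 27641 in D_7135, 15663 in D_7137, 48953 in D_7138, 4113 in D_7142, 11722 in D_7143 and 30557 in D_7146. In 4 of 6 control libraries Nppa was below every DAAO library, and 3 of 6 DAAO libraries were above every control. In this ventricle the groups were apart for 9.96% of all tested genes, and every DAAO library was the higher for 4.46%. C_7123 was higher than D_7137, D_7142 and D_7143, and C_7000 was higher than D_7142.

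The right ventricular mean of Nppa was 5497 ± 8913 for controls and 23108 ± 16062 for DAAO animals (SD, n = 6 each). The log2 change was 3.16 (SE 0.85, 95% interval 1.33 to 4.99, limma adjusted p = 0.0148), the 56th largest rise of 13489 genes. Without C_7123 the CTL mean was 1983 ± 2588 (SD, n = 5) and the log2 change 3.87 (limma adjusted p = 0.00279). On the recovered reads, edgeR's quasi-likelihood test did not call Nppa (log2 change 2.08, adjusted p = 0.109), nor did DESeq2 (2.07, adjusted p = 0.0639), tests that called 25.9% and 30.6% of genes in this ventricle. Without C_7123 both count tests called it, edgeR at a log2 change of 3.56 (adjusted p = 0.00833) and DESeq2 at 3.54 (adjusted p = 8.29e-05).

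Nppb in right ventricular CTL was 2686 in C_7000, 770 in C_7005, 670 in C_7118, 616 in C_7120, 690 in C_7121 and 271 in C_7123. In DAAO it was 3204 in D_7135, 3876 in D_7137, 4811 in D_7138, 2011 in D_7142, 2168 in D_7143 and 3954 in D_7146. Only C_7000 reached into the DAAO range, above D_7142 and D_7143. D_7142 was the lowest DAAO animal for both genes in this ventricle and D_7138 the highest.

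Nppb averaged 950 ± 868 over the controls and 3337 ± 1094 over the DAAO animals (SD, n = 6 each), with a log2 change of 2.11 (SE 0.41, 95% interval 1.24 to 2.98, limma adjusted p = 0.00246), the 171st largest rise. Without C_7000 the log2 change of Nppb was 2.48 (limma adjusted p = 0.000541). Without C_7123, the lowest control, it was 1.82 (limma adjusted p = 0.00434). On the recovered reads without C_7123 it was 1.63 in edgeR (adjusted p = 0.0137) and 1.62 in DESeq2 (adjusted p = 0.00246). With all animals edgeR (log2 change 1.82, adjusted p = 0.00918) and DESeq2 (1.81, adjusted p = 0.00151) also called the gene. Both members were thus called by limma in the right ventricle, where 26.5% of genes were called and 12.5% were called higher. In bulk tissue such as this, more cells of a type and more RNA per cell cannot be told apart.

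**Figure D2:**
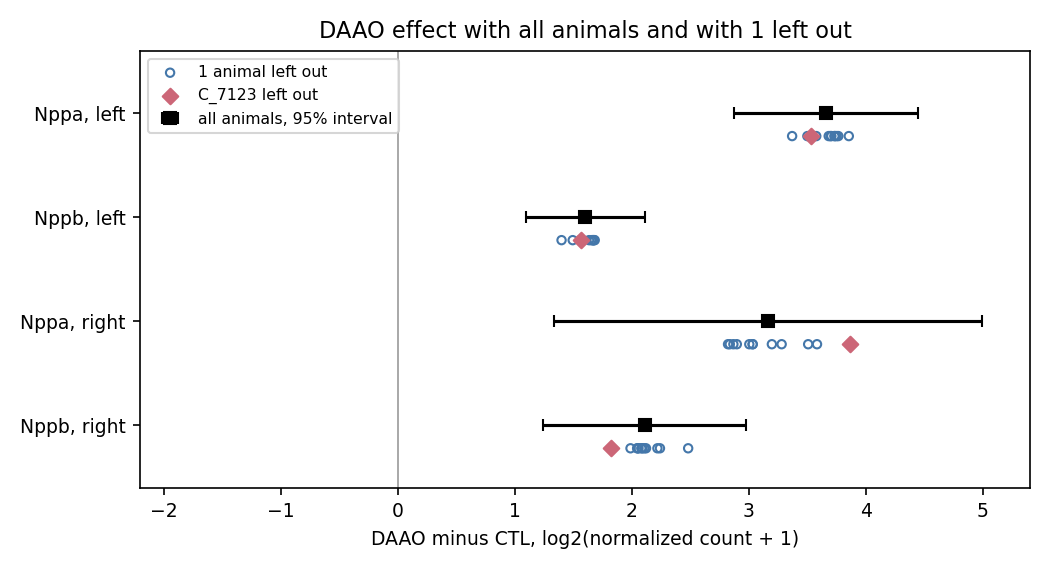
DAAO minus CTL difference on the log2(normalized count + 1) scale for each gene and ventricle. Squares with bars are the limma estimate and its 95% interval over all animals, open circles leave out 1 animal, and diamonds leave out C_7123. With 1 animal left out, the Nppa estimate spans 3.37 to 3.85 on the left side and 2.82 to 3.87 on the right, where the highest value is that without C_7123.

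A change of size factors shifts the log2 change of every well-counted gene alike. The shift given here is thus not a trait of the pair. When all libraries were given equal read totals, the share of called genes that were higher in DAAO moved from 46.4% to 72.7% (left ventricle) and from 47.1% to 80.4% (right ventricle). The median log2 change over all genes moved from 0.01 to 0.22 and from 0.02 to 0.27. Under that scaling the log2 changes were 3.86 for Nppa and 1.81 for Nppb in the left ventricle, and 3.41 and 2.35 in the right. All 4 remained past the limma threshold.

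The ratio of Nppa to Nppb reads within a library needs no scaling, so it can be set side by side across groups and tables. It is not corrected for transcript length, so its changes are compared and not its size. In the left ventricle it ran from 1.21 to 2.62 (median 1.66) in CTL and from 4.47 to 8.29 (median 7.24) in DAAO. Every DAAO library had a higher ratio than every control, and the lowest DAAO ratio was that of D_7142. The log2 difference was 2.05, a 4.15-fold higher ratio (exact permutation p = 0.00216, two-sided, the smallest that 924 splits of 6 and 6 allow, Benjamini-Hochberg adjusted p = 0.00866 over 4 ratio comparisons). Nppa therefore rose by more than Nppb in the left ventricle.

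In the right ventricle the ratio was 2.45 in C_7000, 1.03 in C_7005, 1.90 in C_7118, 1.05 in C_7120, 0.888 in C_7121 and 85.3 in C_7123. In DAAO it was 8.63 in D_7135, 4.04 in D_7137, 10.2 in D_7138, 2.05 in D_7142, 5.41 in D_7143 and 7.73 in D_7146. C_7123 carried the highest ratio of all 24 libraries, with the highest Nppa and the lowest Nppb of the right ventricular controls. With all animals the log2 difference was 1.05 (exact permutation p = 0.381, adjusted p = 0.652). Without C_7123 it was 2.05 (exact permutation p = 0.00649, not adjusted), close in size to the left ventricular value. C_7123 was singled out after this same ratio was seen, and without it D_7142 still lay below C_7000. With any other animal left out, the log2 difference ran from 0.73 to 1.34 (exact permutation p from 0.284 to 0.595).

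The chambers did not differ in the ratio beyond the spread between libraries. The left minus right log2 difference was -0.71 in CTL (exact permutation p = 0.814, adjusted p = 0.814) and 0.29 in DAAO (exact permutation p = 0.489, adjusted p = 0.652). Without C_7123 the CTL difference turned to 0.38.

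**Figure D3:**
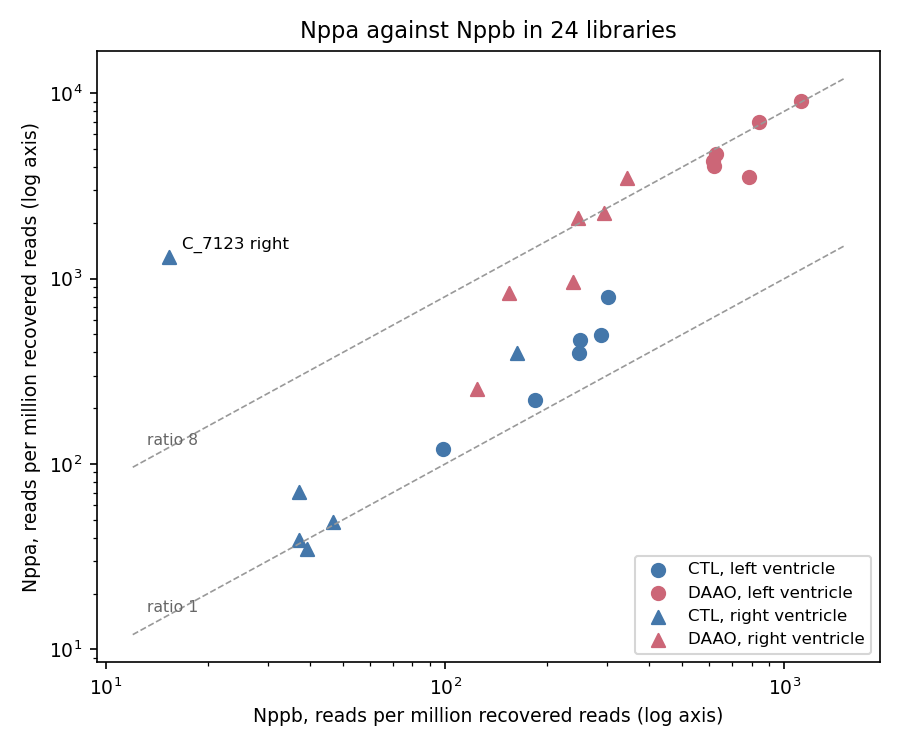
Nppa against Nppb in reads per 1000000 recovered reads, 1 point per library on log axes, with circles for the left and triangles for the right ventricle. Dashed lines mark Nppa to Nppb ratios of 1 and 8. Left ventricular controls lie at ratios from 1.21 to 2.62 and left ventricular DAAO libraries from 4.47 to 8.29, and the right ventricular library of C_7123 lies alone at 85.3.

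To compare levels between the chambers, the recovered reads of all 24 libraries were scaled together. On this jointly scaled count, Nppa averaged 81133 ± 30431 in DAAO left, 25572 ± 17802 in DAAO right, 6978 ± 3479 in CTL left and 6081 ± 9875 in CTL right ventricles (SD, n = 6 each). Without C_7123 the CTL right mean was 2186 ± 2845 (SD, n = 5), with a range of 680 to 7249 that still overlapped CTL left. DAAO right ranged from 4472 to 54143 and overlapped CTL left, which ranged from 2256 to 11964. For Nppb the order was 11563 ± 3019 in DAAO left, 3891 ± 1139 in CTL left, 3687 ± 1221 in DAAO right and 1049 ± 953 in CTL right. Nppb in DAAO right, from 2186 to 5321, covered nearly the same range as in CTL left, from 1831 to 4696.

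Within animals, Nppb was higher in the left than in the right ventricle in 12 of 12. In controls the left-to-right ratio of jointly scaled counts was 1.56 in C_7000, 5.39 in C_7005, 2.46 in C_7118, 6.43 in C_7120, 6.14 in C_7121 and 10.9 in C_7123. For DAAO animals it was 3.47 in D_7135, 2.37 in D_7137, 1.65 in D_7138, 6.02 in D_7142, 3.56 in D_7143 and 3.75 in D_7146. The mean log2 difference was 2.18 in CTL (SE 0.36, limma adjusted p = 2.82e-05) and 1.68 in DAAO (SE 0.36, limma adjusted p = 0.0011). These limma fits, here and for Nppa below, did not use the pairing. With the animal number as a block the SE was 0.27 (limma adjusted p = 5.81e-06 in CTL and 0.000187 in DAAO). Without C_7123 the CTL difference was 1.93 (limma adjusted p = 0.000146, no block), and without C_7000 it was 2.49 (limma adjusted p = 1.52e-06, no block). With all animals Nppb was called higher in the left in CTL and in DAAO, as were 23.2% of 13810 genes in CTL and 14.6% in DAAO (44.5% and 27.6% in either direction).

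Nppa was higher in the left ventricle in 6 of 6 DAAO animals and in 5 of 6 controls. Its left-to-right ratio was 1.09 in C_7000, 13.7 in C_7005, 1.60 in C_7118, 9.81 in C_7120, 12.9 in C_7121 and 0.154 in C_7123. In DAAO the ratio was 3.33 in D_7135, 4.11 in D_7137, 1.21 in D_7138, 13.2 in D_7142, 4.30 in D_7143 and 3.93 in D_7146. C_7123 was the one animal with more Nppa in its right than in its left ventricular library, while its Nppb ratio was the highest of all animals. The pairing of its libraries rests on the number alone. Over all genes compared, its left library did not correlate best with its right (r = 0.254).

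In CTL the Nppa difference between chambers was 1.48 on the log2 scale (SE 0.72, 95% interval 0.00 to 2.95) and missed the threshold (limma adjusted p = 0.0976). On the recovered reads edgeR put it at 0.20 (adjusted p = 0.852). Without C_7123 it was 2.31 and passed (limma adjusted p = 0.00498). In DAAO it was 1.98 (SE 0.72, limma adjusted p = 0.0421). That call was lost in edgeR (log2 difference 1.67, adjusted p = 0.0984) and on leaving out D_7135, D_7137, D_7142, D_7143 or D_7146 (limma adjusted p between 0.0805 and 0.130).

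**Figure D4:**
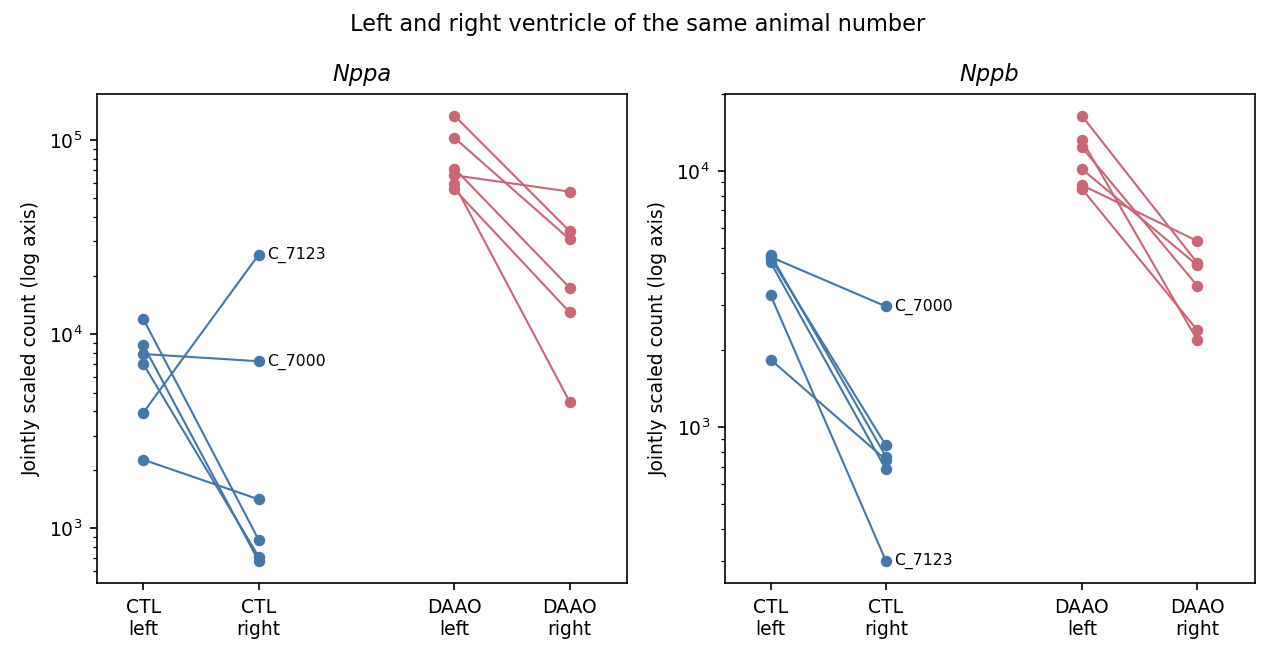
Jointly scaled counts in the left and right ventricle, on log axes, with a line joining the libraries of the same animal number. Lines fall from left to right for Nppb in 12 of 12 animals and for Nppa in 11, the exception being C_7123 with a left-to-right ratio of 0.154.

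The DAAO effects themselves were not shown to differ between the ventricles. The left minus right difference of the effect was 0.50 for Nppa (95% interval -1.59 to 2.59, limma adjusted p = 0.872) and -0.50 for Nppb (95% interval -1.55 to 0.54, limma adjusted p = 0.672). Both intervals reach beyond a 2-fold difference, so the data do not show equal effects. For Nppa, edgeR put the difference at 1.48 (adjusted p = 0.497). Of the 13344 genes tested in both tables, 2.93% differed between the ventricles. Without C_7123 the Nppa difference turned to -0.34 (limma adjusted p = 0.890). The Nppb difference was -0.25 without C_7123 (limma adjusted p = 0.846) and -0.82 without C_7000 (limma adjusted p = 0.350).

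Both genes varied widely between animals of 1 group. The highest library exceeded the lowest by 5.36-fold for Nppa in left CTL, 2.38-fold in left DAAO, 37.6-fold in right CTL and 11.9-fold in right DAAO. For Nppb these ratios were 2.59, 1.92, 9.93 and 2.39 in the same order. Both right CTL ratios depended on C_7123 and that of Nppb also on C_7000. That of Nppa was 10.7 without C_7123, and that of Nppb was 2.85 without C_7000 and 4.36 without C_7123. On the log2 scale the SD of Nppa was 0.88, 0.50, 2.15 and 1.27 in those groups, where the median SD over genes that averaged 100 or more was 0.18, 0.17, 0.23 and 0.25. Without C_7123 the SD of Nppa in right CTL was 1.42. The SD of Nppa exceeded that of 93.6% to 99.7% of such genes and that of Nppb 88.2% to 98.2%, depending on the group. The highest share for Nppb was in right CTL, where its SD was 1.06. Without C_7000 that SD was 0.61, above 93.3% of such genes, and without C_7123 it was 0.89, above 97.2%.

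In 3 of 4 groups the pair tended to be high in the same animals, although no relation passed adjustment over the 8 that were computed. Across 6 animals, log2 Nppa and Nppb had a Pearson r of 0.94 in left CTL (exact permutation p = 0.00694, adjusted p = 0.0556, Spearman rho 0.94, exact permutation p = 0.0167). In right DAAO r was 0.88 (exact permutation p = 0.0167, adjusted p = 0.0667, rho 0.94, exact permutation p = 0.0167). It was 0.75 in left DAAO (exact permutation p = 0.0931, rho 0.66, exact permutation p = 0.175) and -0.11 in right CTL (exact permutation p = 0.772, rho -0.14, exact permutation p = 0.803), the group with C_7123. Without the 2 animals farthest from the median of Nppa, r was 0.51, 0.66, -0.07 and 0.11 in the same order, over 4 animals with a narrower range.

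No relation between an animal's left and right ventricular levels passed the test. For Nppa, r between the ventricles was -0.34 in CTL (exact permutation p = 0.535, rho -0.49, exact permutation p = 0.356) and 0.53 in DAAO (exact permutation p = 0.297, rho 0.60, exact permutation p = 0.242). For Nppb it was 0.31 in CTL (exact permutation p = 0.422, rho 0.60, exact permutation p = 0.242) and -0.02 in DAAO (exact permutation p = 0.972, rho -0.03, exact permutation p = 1). The lowest adjusted p of these 4 relations was 0.594 for Pearson's r and 0.387 for Spearman's rho. Without the 2 animals farthest from the left ventricular median, r was -0.23 and 0.52 for Nppa, and 0.17 and -0.92 for Nppb.

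The genes whose pattern was most like each member were sought among the 10954 genes that averaged 50 or more in both tables. The measure was Pearson's r over the 24 libraries after the mean of each group was subtracted, given here as a description. Over all libraries Nppb ranked only 1426th for Nppa (r = 0.24), and Nppa ranked 2188th for Nppb. Without the right ventricular library of C_7123, a choice made after its values were seen, Nppb ranked 1st for Nppa and Nppa 1st for Nppb (r = 0.89). In the left ventricle alone, with 12 libraries, each ranked 3rd for the other (r = 0.89). In the right ventricle alone, with C_7123 included, r was 0.10 and the ranks were 3551st and 3874th. Leaving out 1 of 24 libraries thus moved the partner from far down the order to its head.

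Over all 24 libraries ENSRNOG00000006958 ranked first for Nppa (r = 0.74). Its normalized count was low, with medians of 84.9 in left CTL, 57.9 in left DAAO, 71.9 in right CTL and 60.4 in right DAAO, and it fell to 21st without that library. For Nppb the first was ENSRNOG00000037645 (r = 0.83), with medians of 235, 1594, 103 and 665 in the same order. It was 4th without that library (r = 0.75). In the left ventricle alone ENSRNOG00000006958 ranked 740th for Nppa and ENSRNOG00000037645 358th for Nppb (r = 0.55 each). In the right ventricle alone they ranked 9th (r = 0.79) and 1st (r = 0.91).

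The right ventricular library of C_7123 stood apart in few other genes, though in more than most controls. In it, 7 of 11786 genes stood at least 8-fold and 19 at least 3-fold above the highest of the other 5 controls, against 32 and 108 genes in that of C_7005, and at most 4 and 7 in the other 4 right ventricular controls. Nppa, 3.50-fold above the highest and 29.0-fold above the median of the others, was 14th among these genes. In C_7000, Nppb was 3.49-fold above the highest of the other right ventricular controls, the third largest such excess in that library, and Nppa was 8.28-fold above their median. C_7000 was thus raised in both genes and C_7123 in Nppa without Nppb. The part of tissue make-up or sampling in these libraries was not tested.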

How the data were processed

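The 24 RNA sequencing libraries came as 1 table per ventricle. The authors deposited a signal, normalized counts, in which the reads of a gene are divided by 1 size factor per library. The submitters' processing notes name the tools STAR 2.7.0a, FastQC, DESeq2 1.26.0 and the build Rnor_6.0. Details of the read counter, annotation and strand setting, not given in the sources used here, could matter: reads shared with overlapping genes are possible. Values above 0 were whole multiples of each library's smallest value (100% within 1e-06), so reads were recovered by division.

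DAAO was compared with CTL within each table by limma 3.58.1 (R 4.3.3), fitted to log2 values after adding 1 and allowing for a mean-variance trend. Genes with a table mean of 10 or more were tested, two-sided, with Benjamini-Hochberg adjustment over all of them and a threshold of 0.05. Fold changes are on that scale. Chamber levels were compared on recovered reads scaled jointly by median-of-ratios factors over 24 libraries, and the difference of DAAO effects on the deposited values, by limma over 4 groups. Alternatives were edgeR 4.0.16 and DESeq2 1.42.0 on recovered reads, other pseudocounts, filters and scalings, each animal left out, and the animal as a block. Those that combine a count test or the block with leaving out C_7123 were added after seeing the data. The fits were tested on simulated data.

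Named genes were the 2 members and, for each, the single gene most like it. The members, lists and tests were chosen with earlier results of these data known. Lists given by symbol (pathway genes and cell markers) were not run, because 0 of 32883 identifiers matched the reference table. Promoters are from RefSeq, GRCr8, and both members were matched there by symbol.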

Additional observations from a re-analysis of the deposited data

Results flagged for a closer look

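In 3 of 12 sets of 6 libraries 1 library lay far from the others. Chance flags about 1 in 20 sets of normally distributed values, which normalized counts need not be. In right ventricular controls, Nppa stood at a normalized count of 23065 in C_7123, with the next at 6588. The log2 ratio of Nppa to Nppb was 6.41 in that same library, with the next at 1.29, so these 2 are not separate events. Nppb stood at 2686 in C_7000, with the next at 770. On the log2 scale the gap to the next library was 0.35 of the group's range for Nppa and 0.54 for Nppb, and neither would be marked, so 2 of the 3 depend on the scale.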

How the results depend on the processing

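The DAAO effects of both genes in the left ventricle and of Nppb in the right kept their direction and stayed past the threshold under every alternative run (3.37 to 3.99, 1.40 to 1.81 and 1.62 to 2.59). In the right ventricle Nppa lost its call in edgeR (2.08) and DESeq2 (2.07), and with 1 animal left out it ran from 2.82 to 3.87 and stayed called. The Nppa difference of effects between ventricles ran from -0.34 to 0.96 with 1 animal left out, was 1.48 in edgeR, and was -0.34 with the replicate block and without C_7123. The left minus right difference of Nppa in CTL ran from 1.02 to 2.31 with 1 animal left out, was 0.20 in edgeR, and was 2.31 with the replicate block and without C_7123. In DAAO it ran from 1.63 to 2.31 with 1 animal left out and was 1.67 in edgeR, where its call was lost. The ratio of Nppa to Nppb between groups in the right ventricle ran from 0.73 to 2.05 with 1 animal left out, and was 0.67 without both C_7000 and C_7005. Between the chambers in CTL it ran from -1.12 to 0.38 with 1 animal left out, was -1.27 without both of these animals, and was 0.38 in the paired test without C_7123. The libraries of the ventricles share only a number: same-numbered libraries deviated from their group means with r between 0.057 and 0.788 (median 0.547, above 0.1 for 10 of 12), and 9 of 12 correlated best with their own number. Those that did not were all controls, C_7118 (r = 0.060), C_7120 (r = 0.057) and C_7123 (r = 0.254). With that number as a replicate block, genes that differed in DAAO effect between ventricles numbered 1072 instead of 391, and no call of the pair changed with all animals included. The Nppa difference between chambers had limma adjusted p = 0.0575 in CTL and 0.021 in DAAO with the block. The paired exact test gave p = 0.8125 for the ratio in CTL and p = 0.3125 in DAAO. Genes called numbered 4411 to 6707 in the left and 2587 to 4745 in the right ventricle over all alternatives. Beyond the values that leave C_7123 out, the cause of these changes was not tested. Both members had at least 256 reads in every library, so counting error is small beside the spread between animals.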
